A study of Drosophila melanogaster with 2 samples.

Results

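The regions described here are the distal peaks of tagged CG7271 whose summits lay in 3′ untranslated regions (3′ UTRs), the stretches of a messenger RNA after the stop codon. They were chosen by position alone from the pooled peak list. A summit had to lie more than 500 bp from every annotated transcription start site (TSS), inside a 3′ UTR segment, and in no coding or 5′ UTR segment. This left 1281 of 30000 pooled peaks (4.27%, exact 95% interval 4.04 to 4.50%) and 6.12% of the 20925 distal ones.

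Whole embryos of Drosophila melanogaster, 0 to 4 hours old, were used for ChIP-seq, the sequencing of DNA recovered by immunoprecipitation of chromatin. They belonged to a stable transgenic line in which CG7271 carries a C-terminal GFP (green fluorescent protein) tag. The description states that an anti-GFP antibody was used, while the antibody label names CG7271. The 2 libraries, biological replicates 2 and 3, came from different biosamples and make up a single group. Conditions could therefore not be compared, and no control library was analysed here. All values are those of a tagged protein in 1 transgenic line and of all cell types of the embryo together. The authors called 30000 peaks on each replicate and on both together, and kept 2445 peaks by an irreproducible discovery rate (IDR) threshold, a method that compares the ranks of peaks between replicates. All 2445 were the pooled peaks of highest signal. The signal of a peak, as the authors gave it, has no stated scale, and it serves here only for ranking and describing peaks inside 1 list. Read depth is unknown from these files. Intervals cover counting error over peaks, which are not replicates and are not independent where neighbours lie close together.

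The 3′ UTR carries sites at which RNA-binding proteins and microRNAs act on the messenger RNA, and near its end a poly(A) signal, usually AATAAA, directs cleavage and addition of the poly(A) tail. In Drosophila, genes active in the nervous system are known for very long 3′ UTRs. ChIP-seq reads DNA rather than RNA, so a peak in a 3′ UTR is a call on the DNA of that stretch and not on the messenger RNA. Whether the tagged protein is bound at a given peak was not tested. The gene that holds the summit is called its host here, without any statement that the peak acts on that gene.

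The sequences below are shown because the peaks of highest signal differed from the rest in what lay at their summits. Each is 30 bases of the RefSeq copy of dm6, read 5′ to 3′ on the strand of the host gene, with CGGAA and its reverse complement TTCCG in capitals. The first 6 are centred on the summits of the highest IDR peaks for which sequence is shown. Of these 6 windows only that of pros holds the motif. fne and Rbp9 have a copy farther out, within 50 bp of the summit, and CG4004, Cals and CG9837 have none within 50 bp. The window of CG4004 holds the letters AATAAA, and those of Cals and CG9837 hold the reverse complement TTTATT.

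pros, chr3R:11392983-11393012, strand +: actgcttggccgaccgactTTCCGgtaagc

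fne, chrX:12947831-12947860, strand +: gaagtcctcgaaaggcgactgcttgcaagc

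Rbp9, chr2L:2967099-2967128, strand +: gcttgtaaacgatgcaaacgtgcaaccctg

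CG4004, chrX:12748348-12748377, strand +: taacaataaagctcatttggaaaaagaata

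Cals, chr4:1113285-1113314, strand -: agggtattcagagctacactttatttctta

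CG9837, chr3R:8808639-8808668, strand -: atcattttcgtgaagtattgatttattgat

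The next 5 are stretches within 50 bp of an IDR summit that hold 3 or more copies in 30 bases, chosen after the motif had been seen. In orb2, dpy, CG16779, mamo and tnc, neighbouring copies often start 6 bp apart, with 1 base between them.

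orb2, chr3L:8939854-8939883, strand -: CGGAACGGAAaCGGAAatcggttagcggta

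dpy, chr2L:4478151-4478180, strand -: CGGAAactatgcagcgaatTTCCGtTTCCG

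CG16779, chr3R:9464406-9464435, strand -: TTCCGttttcgttttcgtTTCCGtTTCCGc

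mamo, chrX:13847680-13847709, strand -: aaCGGAAatggtacgggaaCGGAAgCGGAA

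tnc, chr3R:25022520-25022549, strand +: CGGAAaCGGAAaccgattaCGGAAcCGGAA

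Peaks in distal 3′ UTRs were mostly of low signal. Their median pooled signal was 46.5 (quartiles 41.4 and 56.1, highest 562). The median was 51.3 over all pooled peaks, 49.6 over distal introns and 44.7 over distal coding exons. Ranks beyond 15000 were held by 831 of the 3′ UTR peaks (64.9%), and 16 were among the 1000 highest. The pooled list has 30000 peaks, so 15000 of all peaks lie beyond rank 15000 by definition. Ranks 20001 to 30000 were held by 561 of the 1281 3′ UTR peaks. They were held by 4075 of the 11322 distal intronic peaks, 2271 of the 6031 intergenic ones and 892 of the 1691 in coding exons. Low ranks were thus more frequent in 3′ UTRs than in introns and less frequent than in coding exons. The IDR list held 39 of the 1281 (3.04%, exact 95% interval 2.17 to 4.14%), against 8.15% of all pooled peaks and 5.57% of all distal pooled peaks. The corresponding shares were 6.32% (5.87 to 6.78%) of the 11322 distal intronic peaks, 5.90% (5.32 to 6.53%) of the 6031 intergenic ones and 0.828% (0.453 to 1.39%) of the 1691 in coding exons. In a logistic fit over all distal pooled peaks the odds ratio of an IDR peak in a 3′ UTR was 0.516 (95% Wald interval 0.373 to 0.714). With GC content as a further term it was 0.402 (0.290 to 0.557), and with GC content and distance to the TSS 0.387 (0.279 to 0.537). These single values average over a relation that turned with composition. At 50% GC and over, 10.8% of 3′ UTR peaks (5.28 to 18.9%) were in the IDR list and 2.24% of intronic ones (1.53 to 3.17%), whereas under 30% GC the shares were 2.06% (0.892 to 4.01%) and 13.5% (12.1 to 14.97%). The number of pooled peaks per length of sequence was close to that in introns. Distal 3′ UTR sequence, 5.93 Mb in all, held 216 pooled peaks per Mb, as compared with 214 in introns, 165 in intergenic sequence and 90.9 in coding exons. IDR peaks numbered 6.58 per Mb in 3′ UTRs, 13.5 in introns, 9.76 in intergenic sequence and 0.752 in coding exons. Distal 5′ UTRs and non-coding exons held more of both, with 321 and 310 pooled peaks and 24.7 and 20.1 IDR peaks per Mb.

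As in every other place, more of these peaks were found in replicate 2 than in replicate 3. A replicate summit lay within 100 bp of 815 of them (63.6%) in the replicate 2 list and of 577 (45.0%) in the replicate 3 list, as compared with 68.8% and 52.7% of intronic peaks and 65.2% and 39.4% of those in coding exons. Both lists held 308 (24.0%, exact 95% interval 21.7 to 26.5%), against 36.4% of all pooled peaks, and 197 were in neither. Peaks in both lists made up 33.7% (32.8 to 34.6%) of distal intronic, 32.3% (31.1 to 33.5%) of intergenic and 19.9% (18.0 to 21.9%) of coding-exon peaks. The interval for 3′ UTRs lay below those of introns and intergenic sequence and overlapped that of coding exons. Within the IDR list, 38 of the 39 had a summit in replicate 2, 38 in replicate 3 and 37 in both, while 28 were among the 2445 highest peaks of each replicate. The exceptions were the peak in Tmep, whose nearest replicate 2 summit was 121 bp away, and that in CG5984, with the nearest replicate 3 summit at 105 bp. Their ranks given in those lists are the ranks of these nearest summits.

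**Figure D1:**
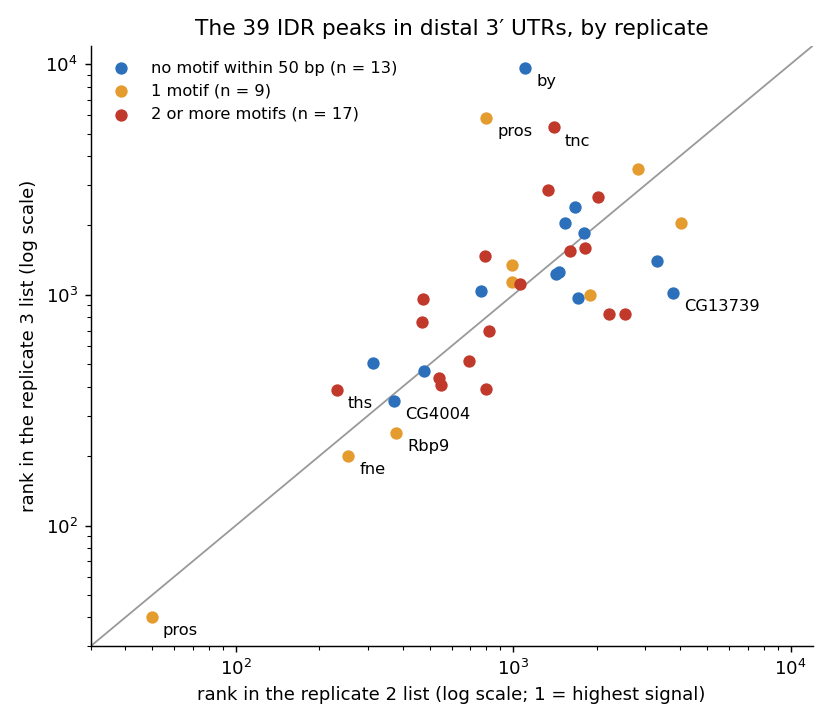
Rank of each of the 39 IDR peaks in distal 3′ UTRs in the replicate 2 list (x axis, log scale) and the replicate 3 list (y axis, log scale), with 1 as the highest signal, coloured by the number of CGGAA copies within 50 bp and with the line of equal rank. The pros peak at ranks 50 and 40 stands apart from the rest, and by, tnc and the second pros peak rank below 5000 in replicate 3.

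Genes for transcription factors hosted the highest peak. It lay in pros (3R, 11392856 to 11393120), which encodes the homeodomain protein Prospero of dividing neural precursors, 900 bp after the stop codon in a 3′ UTR of 15530 bp. Its signal was 562 in the pooled list (rank 44), 320 in replicate 2 (rank 50) and 246 in replicate 3 (rank 40). A second IDR peak in the same 3′ UTR, 3942 bp after the stop codon, had a pooled signal of 142 (rank 1526), 113 in replicate 2 (rank 800) and 32.5 in replicate 3 (rank 5840). The first peak thus had similar ranks in both replicates, and the second, although in the IDR list, did not. Hr4, a nuclear receptor gene, had a pooled signal of 171 (rank 1017), 103 in replicate 2 (rank 994) and 69.1 in replicate 3 (rank 1143). A peak in the overlapping 3′ UTRs of Cals, the calsyntenin gene, and sv, which encodes a Pax-family transcription factor, had a pooled signal of 274 (rank 365), 172 in replicate 2 (rank 312) and 100.7 in replicate 3 (rank 507).

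Genes for RNA-binding proteins hosted 3 of the 10 highest peaks. The genes fne and Rbp9 encode neuronal proteins of the ELAV family, which bind AU- and U-rich RNA, and orb2 encodes a CPEB-type translational regulator. The peak in fne (X, 12947764 to 12947947) had a pooled signal of 343 (rank 214), 188 in replicate 2 (rank 255) and 149 in replicate 3 (rank 200). That in Rbp9 (2L, 2967021 to 2967195) had 285 (rank 331), 156 (rank 380) and 134 (rank 253) in the same order. For orb2 (3L, 8939656 to 8940035) the values were 225 (rank 550), 121 (rank 694) and 99.4 (rank 515). These 3 peaks ranked higher in replicate 3 than in replicate 2. They lay far inside long 3′ UTRs, 2355 bp, 3727 bp and 3044 bp after the stop codon.

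Genes for signalling, matrix and membrane proteins hosted 5 more of the 20 highest peaks. ths, an FGF ligand gene, had a pooled signal of 302 (rank 288), 193 in replicate 2 (rank 232) and 112 in replicate 3 (rank 389). Rap1, which encodes a small GTPase, had 218 (rank 581), 142 (rank 469) and 82.7 (rank 764). Both ranked higher in replicate 2. OtopLa, a proton channel gene, had 235 (rank 502), 135 (rank 539) and 107 (rank 436). dpy, which encodes the giant apical matrix protein Dumpy, had 211 (rank 638), 113 (rank 802) and 112 (rank 391). Bsg, the basigin gene, had 157 (rank 1229), 74.8 (rank 2217) and 79.7 (rank 827). Each of these 3 ranked higher in replicate 3 than in replicate 2.

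Genes of the cytoskeleton and of protein turnover, and genes with less familiar products, completed the 20. Fbxl4, an F-box gene, had a pooled signal of 206 (rank 671), 142 in replicate 2 (rank 472) and 74.6 in replicate 3 (rank 960). APC7, a subunit gene of the anaphase-promoting complex, had 185 (rank 849), 116 (rank 765) and 71.8 (rank 1040). The formin gene dia had 157 (rank 1221), 82.7 (rank 1719) and 74.3 (rank 973), and nocte, named for a defect in entrainment of the circadian clock by temperature, had 245 (rank 453), 133 (rank 552) and 111 (rank 406). Fbxl4 and APC7 ranked higher in replicate 2, and dia and nocte in replicate 3. Genes known here by number only were CG4004 (pooled rank 340, then 372 in replicate 2 and 346 in replicate 3), CG9837 (441, 477 and 468), CG43901 (819, 820 and 701), CG16779 (980, 1063 and 1120) and CG3548 (1024, 791 and 1476). The first 4 of these kept similar ranks in both replicates.

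The other 19 IDR peaks had pooled ranks from 1283 to 2319, with a median of 1757. Their replicate 2 ranks ran from 800 to 4025 (median 1672) and their replicate 3 ranks from 830 to 9676 (median 1853). Besides the second pros peak, the hosts were 14-3-3zeta, CG7872, aus, CG8500, Atet, CG9500, Uck, CG13739 (with CG13954), Mp, CG9173, CG5984, CG32107, Tmep, by, mamo, tnc, Not1 and ymp. Mp encodes a collagen of the multiplexin type, by encodes tensin, mamo a zinc-finger transcription factor of the germline and Not1 the scaffold of the CCR4-NOT deadenylase. The peak in by was the most unequal, with rank 1107 in replicate 2 and 9676 in replicate 3, followed by the second pros peak with 800 and 5840 and by tnc with 1402 and 5317. The 5 highest peaks outside the IDR list were in Calr (pooled signal 114.3, rank 2495), Sobp (rank 2501), CG33229 (rank 2505), dmrt99B (rank 2534) and the phosphodiesterase gene dnc (rank 2543).

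The sequence CGGAA, on either strand within 50 bp, was found at 26 of the 39 IDR summits in 3′ UTRs (66.7%, exact 95% interval 49.8 to 80.9%) and at 175 of the other 1242 (14.1%, 12.2 to 16.2%). Over all pooled peaks the share was 15.2%. The motif was chosen after the data had been seen, so these shares are a description. In windows 500 bp to either side of the IDR summits it was found in 9 of 78 (11.5%), and in 10.8% of windows of equal length placed across all distal 3′ UTR sequence. At least 2 copies lay at 17 of the 39 (43.6%, 27.8 to 60.4%) and at 40 of the 1242 (3.22%, 2.31 to 4.36%), and at least 3 copies at 10 and 15. Besides those printed above, OtopLa, Fbxl4, CG43901, CG3548 and Bsg had 3 copies each. CG16779 had 5, all on the strand opposite to the gene.

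**Figure D2:**
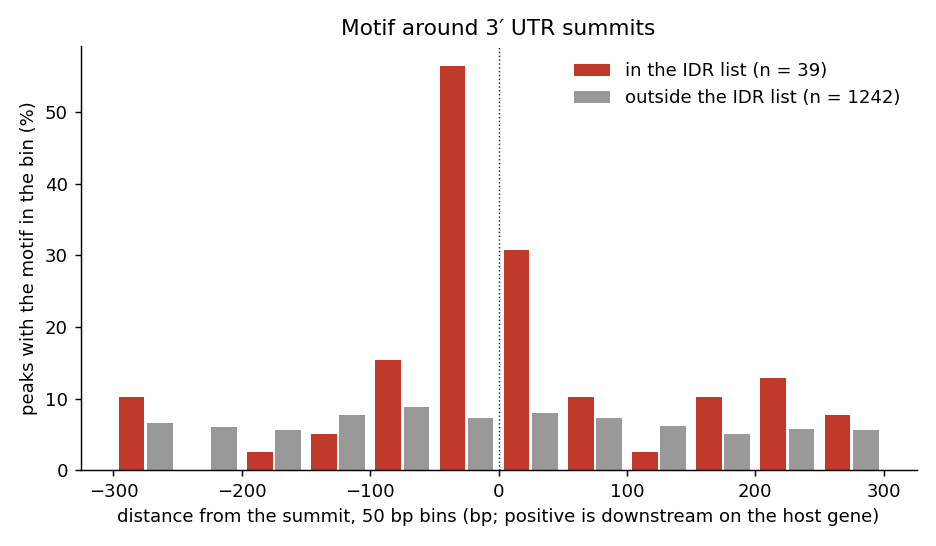
Share of 3′ UTR peaks with CGGAA on either strand in each 50 bp bin around the summit, along the host gene, for the 39 peaks in the IDR list and the 1242 outside it. The IDR peaks reach 56.4% in the bin just upstream and 30.8% in the bin just downstream of the summit, while the others stay between 4.99 and 8.86% in every bin.

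The motif was concentrated at the summit itself. Of the 39 IDR peaks, 56.4% had a copy in the 50 bp just upstream of the summit along the host gene and 30.8% in the 50 bp just downstream, and the other bins held between 0 and 15.4%. Among the other 1242 peaks the shares in these 2 bins were 7.33% and 8.05%. The IDR summits held 57 copies, of which 44 (77.2%) were on the strand of the host gene. The share was 66.1% of 233 copies at the other members and 55.5% of all 7395 copies in distal 3′ UTR sequence. Of 27 neighbouring pairs on the same strand at IDR summits, 18 started 6 bp apart, in 16 different peaks. Among the other members 25 of 53 such pairs did.

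Signal and recovery by the replicates went with the number of copies. The median pooled signal was 46.2 at the 1080 peaks with no copy, 46.5 at the 144 with 1, 65.7 at the 32 with 2 and 97.5 at the 25 with 3 or more. The IDR list held 13 (1.20%), 9 (6.25%), 7 (21.9%) and 10 of these groups. Both replicate lists held 21.3% (18.9 to 23.9%), 27.1% (20.02 to 35.1%), 56.3% (37.7 to 73.6%) and 84.0% (63.9 to 95.5%). The motif was noticed at the IDR summits, which have the highest signal. A rise of signal and of IDR share with copies was thus partly built in, and these values are a description. The shares given next leave the IDR peaks out, but this does not separate copies from signal. Among the remaining peaks the motif share still fell with rank, from 39.5% at ranks 2446 to 5000 to 12.3% at ranks 20001 to 30000. Outside the IDR list the peaks in both replicate lists were 218 of 1067 with no copy (20.4%, 18.0 to 23.0%), 30 of 135 with 1 (22.2%, 15.5 to 30.2%) and 23 of 40 with 2 or more (57.5%, 40.9 to 73.0%). The interval of the last group lay above those of the other 2. Peaks narrower than 380 bp, the width of most pooled peaks, were 6 of the 39 in the IDR list (15.4%) and 0 of the other 1242. The 6 were pros, fne, Rbp9, nocte, OtopLa and Fbxl4, down to 109 bp, and all had the motif. These numbers are near those over all peaks. Of all 30000 pooled peaks 391 were narrower, and 389 of these were among the 2445 IDR peaks (15.9%). In introns 14.4% of IDR peaks were narrower. Members with 3 copies outside the IDR list, named after their values were seen, included dnc, the neurexin gene Nrx-1 (pooled rank 3302, replicate ranks 2112 and 10457), the potassium channel gene Sh (3577, 2659 and 12686) and the homeobox gene hth (3742, 2841 and 15465). Nrx-1, Sh and hth ranked far lower in replicate 3, and tow, the next in signal, ranked far lower in replicate 2 (4136, 10295 and 2390).

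**Figure D3:**
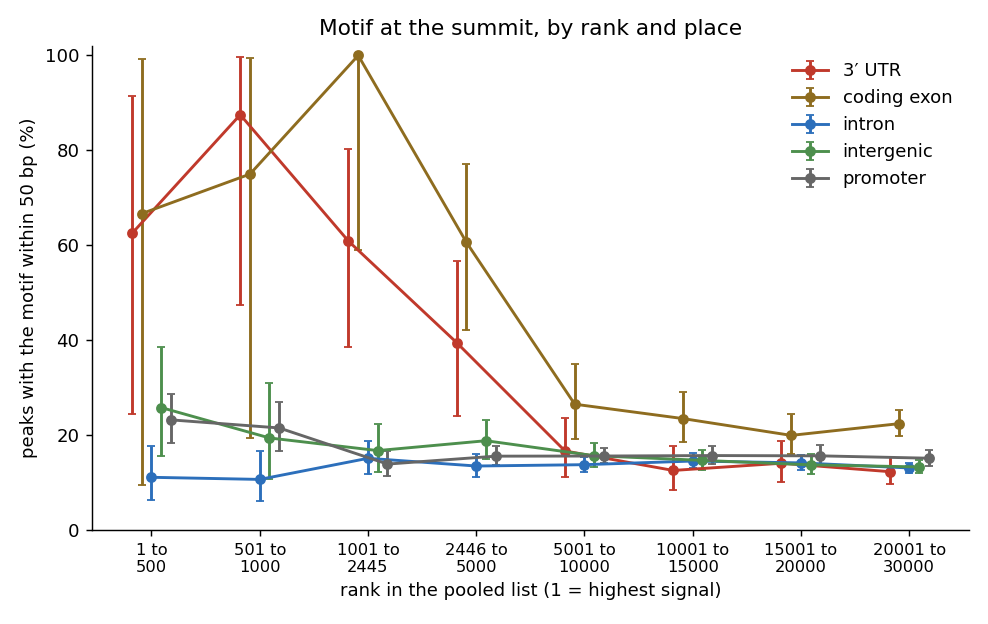
Share of peaks with CGGAA within 50 bp of the summit (y axis) by rank in the pooled list (x axis, 1 is the highest signal), for distal 3′ UTR, coding-exon, intronic and intergenic peaks and for promoter peaks, with exact 95% intervals. In 3′ UTRs the share falls from 60.9% at ranks 1001 to 2445 through 39.5% at ranks 2446 to 5000 to 12.3% in the last bin, while in introns it lies between 10.7 and 15.1% in every bin.

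The relation to rank differed between places. In 3′ UTRs the motif was found at 5 of 8 peaks of ranks 1 to 500, 7 of 8 of ranks 501 to 1000, 14 of 23 of ranks 1001 to 2445 and 15 of 38 of ranks 2446 to 5000 (39.5%, 24.0 to 56.6%). It was found at 16.7% (11.1 to 23.6%) of the 150 peaks of ranks 5001 to 10000 and at 12.3% to 14.1% below them. Among intronic IDR peaks the share was 13.4% (11.01 to 16.1%) and among other intronic peaks 13.7% (13.0 to 14.4%). Intergenic peaks had 18.8% (14.9 to 23.3%) in the IDR list and 14.4% (13.5 to 15.3%) outside it, and promoter peaks 17.5% (15.5 to 19.7%) and 15.5% (14.7 to 16.3%). Of the other exonic places, coding exons and 5′ UTRs were closer to the 3′ UTRs, with 12 of 14 coding-exon IDR peaks (85.7%, 57.2 to 98.2%) against 23.1% of the others, and 11 of 20 in 5′ UTRs (55.0%, 31.5 to 76.9%) against 21.3%. Exons of non-coding genes had the motif at 6 of 22 IDR peaks (27.3%, 10.7 to 50.2%) and at 10.7% of the others. No test of these differences between places was made. In the list of each replicate alone, with its 2445 highest peaks in place of the IDR list, the motif was at 28 of 41 high 3′ UTR peaks in replicate 2 (68.3%, 51.9 to 81.9%) and at 22 of 38 in replicate 3 (57.9%, 40.8 to 73.7%), against 13.1% and 13.8% of the remaining ones.

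Seen from the genome, dense groups of CGGAA in distal 3′ UTRs often held a peak. Copies at most 50 bp from their neighbours were joined, whatever their strand. Groups with 1 copy held a pooled summit in 267 of 5841 cases (4.57%, 4.05 to 5.14%), those with 2 in 62 of 519 (11.9%, 9.28 to 15.1%), those with 3 in 27 of 81 (33.3%, 23.2 to 44.7%) and those with 4 or more in 12 of 26 (46.2%, 26.6 to 66.6%). In introns groups with 3 copies held a summit in 8.81% of cases (6.92 to 11.02%) and those with 4 or more in 13.4% (8.47 to 19.7%). The intervals of 3′ UTRs and introns did not overlap for groups of 2, 3 or 4 and more copies. The 3′ UTR counts include IDR peaks, at which the motif was first noticed. An IDR summit lay in 7 of the 62 groups with 2 copies, 10 of the 27 with 3 and 4 of the 12 with 4 or more. The difference from introns is thus a description. In intergenic sequence the shares were 6.74% and 4.17%, in coding exons 6.70% and 15.7%, and at promoters 13.4% and 12.5%. Groups in 5′ UTRs were few and close to those in 3′ UTRs, with a summit in 8 of 28 with 3 copies (28.6%, 13.2 to 48.7%) and 6 of 16 with 4 or more (37.5%, 15.2 to 64.6%).

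**Figure D4:**
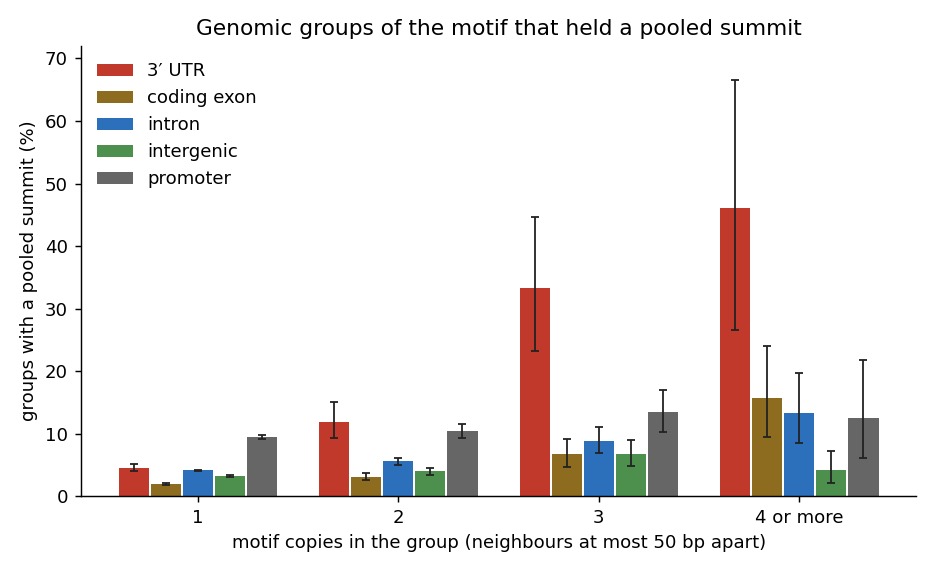
Share of genomic groups of CGGAA that held a pooled summit (y axis) by the number of copies in the group (x axis) in distal 3′ UTRs, coding exons, introns and intergenic sequence and at promoters, with exact 95% intervals. In 3′ UTRs the share rises from 4.57% with 1 copy to 46.2% with 4 or more, and in introns from 4.12% to 13.4%.

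Base composition at the IDR peaks also differed between places. GC content within 50 bp of the summit was 35.3% ± 9.09 (SD, n = 1281 windows) in 3′ UTRs, 38.8% ± 9.35 in introns and 39.1% ± 9.996 in intergenic sequence. The 39 IDR peaks in 3′ UTRs had 41.8% ± 10.4 and the other 1242 had 35.1% ± 8.98. In introns the direction was opposite, with 33.3% ± 9.12 in the IDR list and 39.2% ± 9.25 outside it. Intergenic (35.2% against 39.3%), promoter (35.2% against 40.5%) and non-coding exon peaks (30.3% against 39.7%) had the direction of introns. Coding exons (53.3% against 52.0%) and 5′ UTRs (45.4% against 42.5%) had that of 3′ UTRs, with smaller differences. Since CGGAA itself holds 3 G or C bases, motif and composition move together. Within one range of composition, GC of 40 to under 50%, all 15 IDR peaks had the motif (exact 95% interval 78.2 to 100%) and 61 of 254 others did (24.0%, 18.9 to 29.8%). At 50% GC and over the numbers were 9 of 10 and 26 of 83. From 30 to under 40% they were 2 of 6 and 67 of 524, and below 30% 0 of 8 and 21 of 381. Copies of the motif count toward the GC content that sets the band, so the bands do not separate motif from composition.

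**Figure D5:**
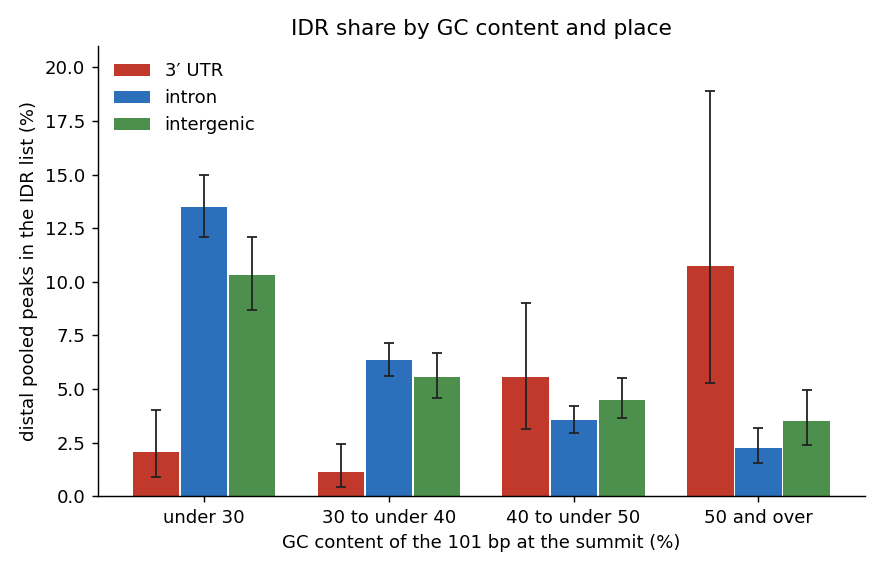
Share of distal pooled peaks in the IDR list (y axis) by GC content within 50 bp of the summit (x axis) in 3′ UTRs, introns and intergenic sequence, with exact 95% intervals. The share in introns falls from 13.5% under 30% GC to 2.24% at 50% and over, while in 3′ UTRs it is 2.06%, 1.13%, 5.58% and 10.8% in the 4 bands.

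The 13 IDR peaks without the motif lay elsewhere in the 3′ UTR. Of these, 9 (69.2%) were within 100 bp of an annotated 3′ end, that of any coding transcript on either strand. The same held for 0 of the 26 with the motif, which allows a share of up to 13.2% by the exact interval, and for 24.7% of all 1281 peaks. Such an end need not be that of the 3′ UTR assigned to the peak. CG4004, CG9837 and 14-3-3zeta, among the 9, were 1422, 975 and 2040 bp from the end of theirs. The median distance of the 13 to the nearest 3′ end was 61 bp, against 470.5 bp for the 26. To the end of the assigned 3′ UTR it was 367 bp against 1375.5 bp. The median GC content of the 13 was 29.7% against 47.5%. CG4004 was 4 bp from a 3′ end, Cals 17 bp, CG9173 18 bp, dia 41 bp and Uck 41 bp. APC7, CG13739, CG32107 and by were the 4 peaks more than 100 bp away. The poly(A) signal AATAAA was found on the host strand at 198 of the 1281 summits (15.5%, 13.5 to 17.6%), on the opposite strand at 12.4% (10.7 to 14.3%) and in 10.9% of windows 500 bp away. On the host strand it was at 3 of the 13 and at 0 of the 26. On the opposite strand it was at 3 of the 13 and at 1 of the 26. Flanking windows held it on the host strand in 19.2% of cases for the 13 and 15.4% for the 26. Per strand, AATAAA was at 13.3% of intronic, 13.8% of intergenic and 2.51% of coding-exon summits. Windows 500 bp away can fall outside the 3′ UTR.

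Of 8 further motifs sought on either strand, a TG repeat and 3 AT-rich sequences were more frequent at 3′ UTR summits than beside them. The flanking windows lay 500 bp away and can fall in coding or other sequence outside the 3′ UTR, so place and distance were not separated. The TATA box (TATAAA) occurred at 23.0% of these summits and 15.03% of flanking windows, the site of the translational repressor Pumilio (TGTANATA, read here in DNA) at 11.01% and 6.05%, the AU-rich element (TATTTAT) at 13.3% and 8.35%, and TGTGTG at 12.2% and 8.35%. At intronic summits they were found at 15.5%, 5.66%, 9.35% and 11.4%, and at coding-exon summits at 3.73%, 0.887%, 1.95% and 3.84%. At the 39 IDR summits the counts, in the same order of motifs, were 7, 2, 3 and 2, too few to show or exclude such an excess. Both at the summit and in the flanks the shares were 17.9% for the TATA box, 5.13% for the Pumilio site and 7.69% for the AU-rich element. For TGTGTG copies they were 5.13% against 11.5%. The GAGA sequence (GAGAGA) was found at 4.61% of 3′ UTR summits and 3.51% of flanks. The site of the early activator Zelda (CAGGTAG) was found at 0.546%, and DRE (TATCGATA) and the M1BP site (GGTCACAC) at 0.156% each. The AT-rich letters and low GC content of these summits were not separated, and a match is no evidence of a bound factor.

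Within the 3′ UTR the summits were spread widely. Their median distance was 665 bp from the stop codon (quartiles 260 and 1564 bp) and 535 bp from the end of the 3′ UTR (208 and 1281 bp). The nearest TSS belonged to a gene other than the host for 881 of them (68.8%). In 441 cases that gene lay downstream on the same strand, in 368 downstream on the opposite strand and in 72 upstream. In another transcript the summit was intronic in 209 cases (16.3%). Just inside the distance limit were CG42828 (502 bp from a TSS, pooled signal 41.5), D1 (509 bp, 42.8) and Frl (511 bp, 48.9), and just outside it CG43203 (496 bp, 41.8), Phyhd1 (493 bp, 56.7) and CG11597 (490 bp, 65.8). A further 216 summits in 3′ UTRs were within 500 bp of a TSS, and 11 of these were IDR peaks.

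The 1281 peaks lay in 1019 host genes, 846 with 1 peak, 124 with 2 and 49 with 3 or more. Hosts had long 3′ UTRs, with a median of 1263 bp, compared with 227 bp over all 13534 genes with an annotated one, and the 38 hosts of IDR peaks had a median of 2070 bp. A peak was found in 2.09% of genes with up to 500 bp and in 58.9% of those with over 4000 bp. A longer 3′ UTR offers more sequence in which a summit can lie. These lengths and shares therefore follow in part from the way the peaks were chosen. The most peaks were in mei-P26, which encodes a TRIM-NHL translational regulator of the germline, with 8 in 18494 bp and the best at rank 8071. pros had 6 in 15530 bp and CkIIbeta, the regulatory subunit gene of casein kinase 2, had 6, with the best at rank 10431, spread over 3 annotated 3′ UTRs of 493 to 2315 bp. Glut4EF and Sh had 5 each, as did hth, corto and msi. Among these 8 genes, IDR peaks were found in pros alone. Chromosome X had 270 of the 1281 (6.22% of its pooled peaks) and 4 had 31 (6.26%), while the autosomal arms had between 3.29% (3L) and 4.60% (3R), with 213 peaks on 2L, 224 on 2R, 219 on 3L and 324 on 3R.

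Among 9 gene lists, RNA-binding proteins and translational regulators had the most hosts. They held a peak in 20 of 37 genes, 3 of them in the IDR list (fne, Rbp9 and orb2), against 1068 of 13534 genes overall (7.89%), with every host of an overlapping summit counted. The lists were chosen with earlier results of these data known, so these counts are a description. The 37 genes had long 3′ UTRs, with 147 kb of distal 3′ UTR in all. Per length of distal 3′ UTR these 37 genes had 0.374 peaks per kb and all genes 0.207. Dorsoventral genes (0.499) and cell cycle genes (0.445) had more per kb, and Polycomb and trithorax group genes (0.364) and Notch pathway genes (0.358) nearly as many. No gene of the other 8 lists had an IDR peak in its 3′ UTR, and 40 of the 13534 genes overall did (0.296%). Hox genes had peaks in 3 of 8, led by abd-A (pooled signal 67.6, rank 7906) with Scr (rank 16285) and Antp (rank 28666). Segmentation genes had 4 of 27, led by Kr (rank 7149), wg (rank 8278) and fz (rank 13358). Notch pathway and Enhancer of split genes had 4 of 20, led by neur (rank 6562), E(spl)m6-BFM (rank 19345) and E(spl)mbeta-HLH (rank 27717). Dorsoventral genes had 5 of 19 (dpp, Tl and rho highest), cell cycle genes 4 of 22 (CycG, CycE and CycB3), and Polycomb and trithorax group genes 4 of 20 (osa, trx and kis). Cytosolic ribosomal protein genes had 5 of 92 (RpL37-1, RpS26 and RpS29 highest) and insulator protein genes 1 of 11, mod(mdg4). The highest peaks of the genes named from these 8 lists had pooled ranks between 6562 and 28666.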

How the data were processed

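ChIP-seq peaks from 2 biological replicates were read from narrowPeak lists on dm6. Per the deposited notes, the authors called each replicate list, and a pooled list, against a control alignment, and derived the IDR list from them. Not given in the sources used here are the aligner, the peak caller, any version and the cut-off for IDR. Each deposited peak has a signal of unstated scale, a −log10 q value capped at 3.70 in the pooled list (unused here) and a summit offset. Whether the lists reflect equal read depths is unknown.

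Gene models came from Ensembl release 115 (dm6 coordinates, transposable elements left out) and bases from RefSeq's copy of that assembly. Where several 3′ UTRs held a summit, the longest was used. Shares have exact (Clopper-Pearson) 95% intervals. Odds ratios come from a logistic regression over all distal pooled peaks (statsmodels 0.14.6, tested on simulated data) and have Wald intervals. Motifs were sought within 50 bp of the summit. Python 3.11.15, pandas 2.3.3 and scipy 1.17.1 were used. Coordinates are 1-based.

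The peaks and gene lists were chosen with earlier results of these data known, and CGGAA after seeing the sequences. Genes named are the hosts of IDR peaks, with values for the 20 highest, the 5 highest outside that list, the 5 hosts with most peaks and up to 3 per gene list. Hosts tied with the fifth, genes at the distance limit and peaks with 3 copies of CGGAA outside the IDR list were also named, the last after their values were seen. Alternatives changed the distance limit, annotation rules, peak number, matching distance, windows and replicates used.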

Additional observations from a re-analysis of the deposited data

How the results depend on the processing

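The odds ratio of an IDR peak stayed below 1 in all 7 alternatives (0.387 to 0.628), and mean GC content between 35.0 and 36.3% in all 6. With the 15000 pooled peaks of highest signal there were 450 peaks in distal 3′ UTRs, 8.67% of them in the IDR list and 54.7% in both replicate lists, since peaks of low signal were removed. The share in both lists was 16.6% with summits within 50 bp, 32.8% within 200 bp and 40.4% by overlap of at least 1 bp. With AATAAA or ATTAAA a poly(A) signal was found at 24.7%. With each replicate list used alone, the number of peaks was 1260 to 1287, the share among the highest peaks 2.95 to 3.25% and the share in both lists 22.7 to 23.1%. For CGGAA at IDR peaks, alternatives chosen after seeing the data gave 41.0% within 25 bp and 57.9 to 69.2% in the other 4. No paired analysis was possible because both replicates belong to 1 group. Read depth is unknown, so that how far it limits the lower-ranked peaks was not tested, and with 39 IDR peaks the shares among them have wide intervals.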
